A study of Mus musculus with 8 samples.

Results

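The 10 genes described here encode enzymes and core subunits that set or remove DNA methylation and histone H3 lysine 27 methylation: Dnmt1, Dnmt3a, Dnmt3b, Uhrf1, Tet1, Tet2, Tet3, Ezh2, Eed and Suz12. They were chosen by symbol, through the Ensembl gene identifiers of a junction table that covered 13378 genes, and all 10 were found and tested. Levels were compared in FT1CL, a line of mouse acute myeloid leukemia, between 4 libraries of genotype Cop1 +/+ with no treatment and 4 libraries of genotype Cop1 ko/ko treated with 4-hydroxytamoxifen. Both groups came from Cop1 cKO/Rosa26-Cre-ERT2 marrow of 8-week-old mice given 5-fluorouracil, transduced with Trib1 in the pMYs retrovirus and grown with interleukin-3. Every comparison is therefore between Trib1-transduced cells of 1 line, and loss of Cop1 cannot be told apart from exposure to 4-hydroxytamoxifen. Whether libraries of a group were separate cultures is not in the labels, and the p-values measure only the spread among these libraries, which may be technical.

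DNA methylation is copied after replication by Dnmt1, which Uhrf1 brings to hemimethylated CpG sites. Dnmt3a and Dnmt3b place new methyl groups, and Tet1, Tet2 and Tet3 oxidise them, a first step of their removal. Polycomb repressive complex 2 (PRC2) methylates lysine 27 of histone H3. Ezh2 is its catalytic subunit, Eed binds the methylated product and stimulates the enzyme, and Suz12 holds the complex together. Dnmt3a, Tet2 and PRC2 genes are mutated in human myeloid neoplasms.

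RefSeq promoter windows on build GRCm38.p6, from 250 bases before to 50 bases after an annotated start, were matched to all 10 genes (15 windows). They were searched on both strands for CCAAT, for 4 words read by E2F factors (TTTCCCGC, TTTGGCGC, TTTCGCGC and TTTGCCGC) and for the C/EBP words TTNNGCAA and TTNNGTAA. An E2F word was found for 4 genes, Dnmt1, Uhrf1, Ezh2 and Suz12, each in 1 window, against 2.26% of all 32851 windows and 5.15% of the 8701 windows with at least 20 CpG. A CCAAT box was found in 8 of the 15 windows, of 6 genes (37.4% of all windows and 32.9% of those with at least 20 CpG). A C/EBP word was found in 1 of the 15, of Eed (18.5% and 7.49%). Of the 15 windows, 9 have at least 20 CpG. The upstream stretches below lie outside annotated exons of their genes and are shown 5′ to 3′ with E2F words and CCAAT boxes in capitals. Suz12 and the second Uhrf1 start carry both motifs upstream, Ezh2 shows 2 CCAAT boxes close together, and Tet2 carries neither motif. Dnmt3a, Dnmt3b and Tet1, whose fold changes were negative, have neither motif as well. A Dnmt1 window that is not shown holds both. The stretches shown are Suz12 at chr11:79992856-79993105 (plus strand), Uhrf1 at chr17:56304063-56304312 (plus strand), Ezh2 at chr6:47595059-47595183 (minus strand) and Tet2 at chr3:133544391-133544640 (minus strand).
Suz12: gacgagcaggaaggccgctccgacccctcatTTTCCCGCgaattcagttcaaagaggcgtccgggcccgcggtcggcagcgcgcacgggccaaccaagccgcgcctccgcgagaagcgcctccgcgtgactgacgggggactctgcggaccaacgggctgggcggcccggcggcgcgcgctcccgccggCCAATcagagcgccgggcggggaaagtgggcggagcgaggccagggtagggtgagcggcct
Uhrf1: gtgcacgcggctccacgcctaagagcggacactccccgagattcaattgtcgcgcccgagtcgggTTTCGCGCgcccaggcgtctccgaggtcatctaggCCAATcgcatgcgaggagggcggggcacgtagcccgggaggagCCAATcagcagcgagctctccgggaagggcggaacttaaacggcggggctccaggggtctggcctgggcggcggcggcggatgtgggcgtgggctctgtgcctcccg
Ezh2: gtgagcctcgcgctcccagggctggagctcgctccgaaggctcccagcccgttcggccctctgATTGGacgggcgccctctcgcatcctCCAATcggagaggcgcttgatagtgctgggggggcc
Tet2: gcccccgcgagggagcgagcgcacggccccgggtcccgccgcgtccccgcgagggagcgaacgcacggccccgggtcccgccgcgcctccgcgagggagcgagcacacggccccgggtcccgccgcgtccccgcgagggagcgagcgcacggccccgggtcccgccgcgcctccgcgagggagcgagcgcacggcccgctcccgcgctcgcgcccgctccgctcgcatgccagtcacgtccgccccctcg
Counted from the annotated start, the E2F word begins at -219 in Suz12 and at -185 in Uhrf1. The word of Ezh2 begins at 3, inside the first exon, and is not among the letters shown. The 4 windows hold 31 to 57 CpG, where the median over all windows is 7. A match describes the letters only and is not a measured binding site.

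A value here is the number of reads across the exon-exon junctions of a gene, per 1000000 junction reads in the library (RPM). Libraries held 17333302 to 22469109 junction reads. Cop1, the deleted gene, had 159 to 166 RPM in wild type and 66.7 to 81.3 RPM in knockout. Trib1, carried by the retrovirus, had 199 to 720 and 390 to 1379 RPM, with a log2 fold change of 1.06 (limma adjusted p = 0.16, and 0.021 in a fit blocked on the replicate number). The libraries numbered 4 stood apart. Pearson r across genes was 0.934 to 0.941 between knockout library 4 and its group, and 0.970 to 0.975 within the rest of that group. Knockout library 4 was about as close to wild-type libraries 1 to 3 (0.935 to 0.943), and wild-type library 4 reached 0.948 to 0.956 with them, where these 3 had 0.969 to 0.981 among themselves. Some junctions held almost no reads in some libraries while the rest of their gene was well read. Such dropped values (at most 6 reads where the rest of the gene predicted at least 100) touched 12037 junctions of 3799 genes, and 5 of the 10 genes here. Results are therefore also given from the complete junctions, those with no dropped value in any library. The 6 markers of the myeloid line (Ptprc, Spi1, Mpo, Elane, Cd33, Csf2rb) together had 1541 to 2833 RPM in wild type and 3541 to 4741 RPM in knockout. Csf2rb was the largest of them, at 917 to 1321 and 2231 to 2737 RPM. Ptprc, Spi1 and Cd33 were also higher (limma adjusted p 0.032, 0.039 and 0.0048). Mpo and Elane overlapped between groups (limma adjusted p 0.47 and 0.37). The 4 mast cell and basophil genes (Cpa3, Mcpt8, Kit, Fcer1a) together had 11951 to 13861 and 11492 to 16601 RPM, most of it Cpa3. Within them Mcpt8, a basophil protease, went from 106 to 580 RPM in wild type to 2138 to 2780 RPM in knockout. The others did not follow, with log2 fold changes of -0.09 for Cpa3, -0.58 for Kit and 0.38 for Fcer1a (limma adjusted p 0.69, 0.53 and 0.76). Of 4 T cell and 4 B cell markers, 1 each could be read, Cd3d and Cd79a, and both were under 1 RPM in each library. Of 3 stromal markers 2 could be read. Col1a1 was under 1 RPM, and the summed level, nearly all Pdgfrb, went from 150 to 206 RPM to 22.9 to 65.9 RPM. Megakaryocyte genes (518 to 900 RPM over all libraries) and erythroid genes (20.7 to 131 RPM) overlapped between groups in their sums, while alpha globin Hba-a1 went from 16.7 to 41.2 RPM to 3.61 to 4.54 RPM. Beta globin Hbb-bs overlapped between groups, with a log2 fold change of 0.10 (limma adjusted p = 0.97). The part of these cell markers in the levels below was not tested.

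Dnmt1, Ezh2 and Suz12 were lower in knockout and Tet2 was higher. These 4 passed limma's test at an adjusted p under 0.05, and the other 6 did not. Of all 11003 genes tested, those averaging 1 RPM or more, 20.6% passed, 12.1% lower and 8.49% higher. The log2 fold change was negative for 9 of the 10 genes, with a median of -0.47 against -0.07 over all genes tested. The groups did not overlap for 5 of the 10, namely Dnmt1, Dnmt3b, Tet2, Ezh2 and Suz12, against 25.1% of all genes (15.4% lower and 9.79% higher). From the complete junctions 6 passed, 5 lower, with Uhrf1 and Dnmt3b added, and 1 higher. That fit called 28% of 10894 genes, 17.1% lower and 10.8% higher. Fold changes compare knockout with wild type on the log2(RPM + 1) scale, which understates them for genes near 1 RPM. In bulk RNA, fewer cells that express a gene and less RNA per cell cannot be told apart.

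**Figure D1:**
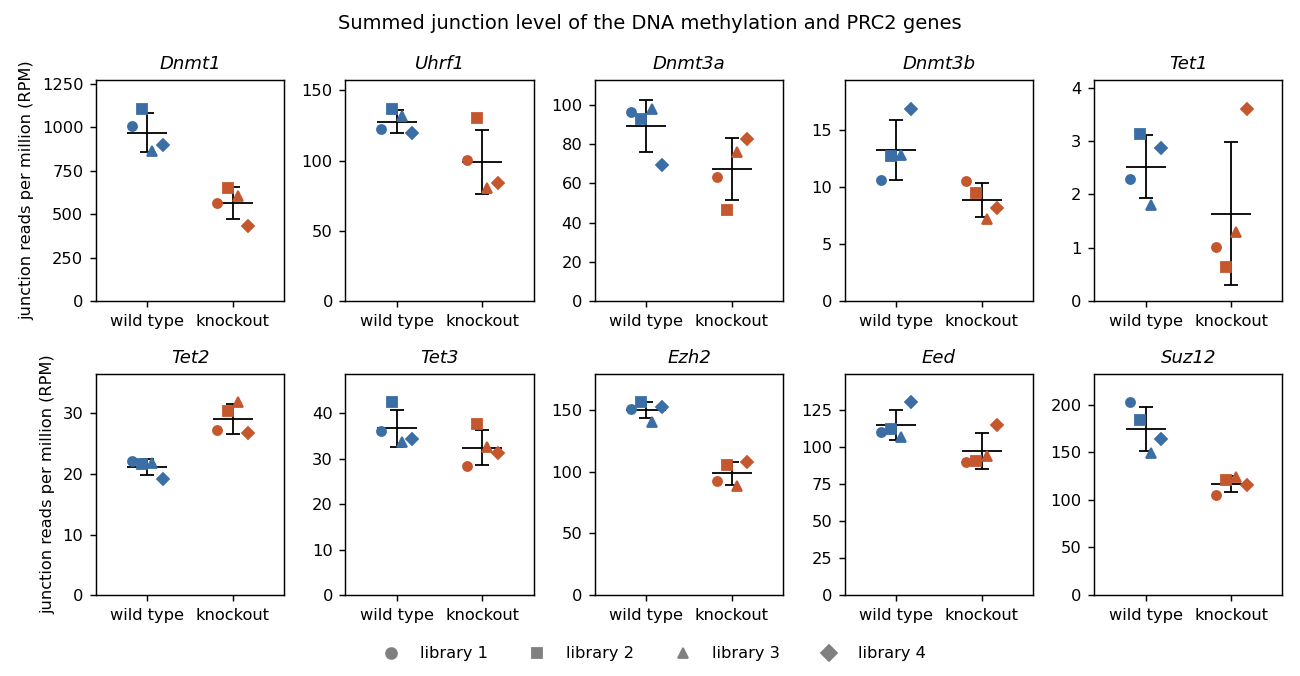
Level of each of the 10 genes (junction reads scaled to depth, RPM, linear axes from 0) in 4 wild-type and 4 knockout libraries. Points are libraries, with symbols for the replicate numbers, long bars are group means and error bars are SD (n = 4). Knockout points lie below all wild-type points for Dnmt1, Ezh2 and Suz12, and above them for Tet2.

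Dnmt1 (ENSMUSG00000004099, chromosome 9, 20907209 to 20959888, minus strand, build mm10) was the most abundant of the 10. It had 1008, 1109, 866 and 901 RPM in wild-type libraries 1 to 4 and 566, 650, 606 and 434 RPM in knockout libraries 1 to 4. Each knockout library was below each wild-type library, and knockout library 4 was the lowest. The mean went from 971 ± 110 to 564 ± 93.4 RPM (SD, n = 4), 58.1% of wild type, or -0.79 as log2 fold change (SE, the standard error, 0.14, limma adjusted p = 0.0077). The complete junctions gave -0.85 (adjusted p = 0.0011), and Dnmt1 passed in 21 of 21 alternative analyses (adjusted p 1.19e-04 to 0.026). Of its 40 junctions, 27 were complete and well read (averaging 30 reads or more after scaling to a common depth). Of these 27, 27 were lower. Their knockout level was 50.2% to 60.7% of wild type, with a median of 55.7%. None of them lies between blocks 4 and 6 or between blocks 9 and 18, where junctions had few reads or dropped values.

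Reads were uneven along Dnmt1 in both groups. The junction of exon blocks 24 and 25 held 595 to 1255 reads in each library, while that of blocks 11 and 12 held 2 to 15. Blocks are AltAnalyze's numbered pieces of a gene, which carry no coordinates in the table. Dropped values fell in different libraries at different junctions: the junction of blocks 14 and 15 held 1, 1113, 4 and 1 reads in wild type and 1, 520, 562 and 1 in knockout. The 3 libraries in which it was read keep the order seen at the complete junctions. Not all junctions with dropped values do. That of blocks 13 and 14 held 1, 2, 8 and 4 reads in wild type and 691, 556, 1 and 5 in knockout. That of blocks 17 and 18 held 1, 1, 750 and 669, and 453, 365, 420 and 1.

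Uhrf1 (ENSMUSG00000001228, chromosome 17, 56303321 to 56323486, plus strand) reads hemimethylated CpG and recruits Dnmt1. It had 123, 137, 132 and 119 RPM in wild type and 101, 131, 80.9 and 84.1 RPM in knockout. Knockout library 2 lay inside the wild-type range and the other 3 below it. On the log2 scale the difference was -0.39 (SE 0.15, adjusted p = 0.10), not past the threshold. Of its 20 junctions 9 had a dropped value. From the other 11 Uhrf1 had 77.4, 82.8, 82.9 and 65.5 RPM in wild type and 47.7, 61.2, 50.7 and 42.7 RPM in knockout. These groups did not overlap, with -0.60 (SE 0.12, adjusted p = 0.0089). Uhrf1 also passed without knockout library 2 (-0.53, adjusted p = 0.025) and when only the most-read junction was used (-0.64, adjusted p = 0.028). In 16 of 21 alternatives Uhrf1 did not pass. Its 5 complete, well-read junctions were 52.4% to 76.3% of wild type.

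**Figure D2:**
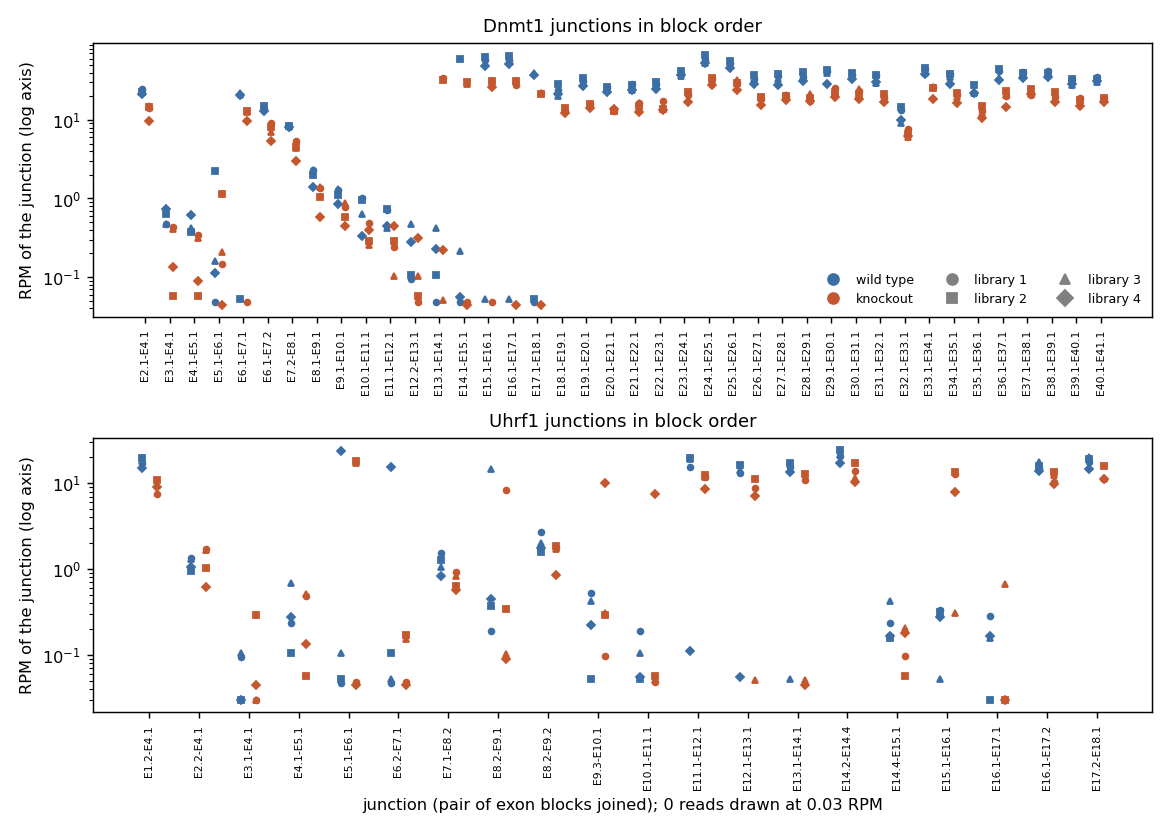
Level of each junction (RPM, log axis, 0 reads drawn at 0.03 RPM) of Dnmt1 and Uhrf1 in block order along the gene, with 1 point per library. Dnmt1 shows wild-type points mostly above knockout points at complete junctions, and few reads in every library at blocks 8 to 12. At some junctions 1 or more libraries fall to a few reads. At that of blocks 13 and 14, knockout libraries 1 and 2 lie far above all wild-type points. Uhrf1 shows more junctions where libraries split into read and nearly unread.

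The de novo methyltransferases were lower on average without passing the test. Dnmt3a (ENSMUSG00000020661, chromosome 12, 3806007 to 3914443, plus strand) had 96.3, 92.7, 98.0 and 69.6 RPM in wild type and 63.4, 46.7, 76.0 and 82.6 RPM in knockout. The libraries numbered 4 went against the others, since knockout library 4 was the highest of its group and wild-type library 4 the lowest. The log2 fold change was -0.42 (SE 0.19, adjusted p = 0.15). Without both libraries numbered 4 it was -0.64 (adjusted p = 0.037). From the complete junctions, blocked on the replicate number, it was -0.47 (adjusted p = 0.038). In the other 19 of 21 alternatives Dnmt3a did not pass. Of 15 complete, well-read junctions, 13 were lower in knockout. The lowest, between blocks 18 and 19, held 163, 117, 155 and 120 reads in wild type and 99, 1, 88 and 159 in knockout, so a single library set its place.

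Dnmt3b (ENSMUSG00000027478, chromosome 2, 153649450 to 153687730, plus strand) was far less abundant, with 1006 junction reads over the wild-type libraries and 706 over the knockout libraries. It had 10.6, 12.7, 12.8 and 16.9 RPM in wild type and 10.6, 9.52, 7.23 and 8.19 RPM in knockout. The groups met at 10.6 RPM, where wild-type library 1 was only just above knockout library 1. The log2 fold change was -0.52 (SE 0.18, adjusted p = 0.068). None of its 27 junctions was flagged for a dropped value, but the rule needs at least 100 predicted reads, and these junctions were too shallow for it. Reads were still uneven among libraries. The junction of blocks 14 and 15 held 1, 1, 2 and 49 reads in wild type and 15, 1, 1 and 4 in knockout. That of blocks 8 and 9 held 1, 1, 2 and 52, and 14, 14, 3 and 1. In the fit across all genes from complete junctions, the same fold change had an adjusted p of 0.048, and 0.055 with dropped values defined by the second-highest ratio. Its most-read junction by itself gave -0.67 (adjusted p = 0.045). In 18 of 21 alternatives Dnmt3b did not pass.

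Among the methylcytosine oxidases, Tet2 rose, and Tet1 and Tet3 did not pass the test. Tet2 (ENSMUSG00000040943, chromosome 3, 133463679 to 133545139, minus strand) had 22.1, 21.6, 21.8 and 19.2 RPM in wild type and 27.3, 30.5, 31.8 and 26.7 RPM in knockout. Each knockout library was above each wild-type library. The mean went from 21.2 ± 1.34 to 29.1 ± 2.46 RPM (SD, n = 4), 137% of wild type, or 0.44 as log2 fold change (SE 0.11, adjusted p = 0.024). Its 10 junctions, none with a dropped value, were all higher in knockout, at 113% to 194% of wild type. Tet2 no longer passed when library WT2, WT4, KO2 or KO3 was left out (WT for wild type, KO for knockout, with the replicate number; log2 fold change 0.39 to 0.45, adjusted p 0.058 to 0.072). The most-read junction by itself gave 0.52 (adjusted p = 0.092).

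Tet3 (ENSMUSG00000034832, chromosome 6, 83362373 to 83459084, minus strand) had 36.2, 42.4, 33.6 and 34.5 RPM in wild type and 28.4, 37.6, 32.6 and 31.3 RPM in knockout. The groups overlapped, and the log2 fold change was -0.17 (SE 0.12, adjusted p = 0.35). Tet1 (ENSMUSG00000047146, chromosome 10, 62804570 to 62908996, minus strand) was barely read, with 192 junction reads over the wild-type libraries and 138 over the knockout libraries. It had 2.29, 3.13, 1.80 and 2.86 RPM in wild type and 1.02, 0.635, 1.29 and 3.60 RPM in knockout. Knockout library 4 had the highest level of all 8 and the other 3 knockout libraries the lowest. With it the log2 fold change was -0.52 (SE 0.32, adjusted p = 0.30), and without it -0.83 (adjusted p = 0.029). In the other 18 of 19 alternatives Tet1 did not pass.

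Of the PRC2 core, Ezh2 and Suz12 fell, and Eed did not pass the test. Ezh2 (ENSMUSG00000029687, chromosome 6, 47530139 to 47595341, minus strand) had 151, 156, 141 and 152 RPM in wild type and 92.9, 106, 88.8 and 108 RPM in knockout. The groups were well separated. The mean went from 150 ± 6.73 to 98.8 ± 9.31 RPM (SD, n = 4), 65.8% of wild type, or -0.60 as log2 fold change (SE 0.09, adjusted p = 0.0041). Of its 27 junctions, 15 were complete and well read, and 15 of 15 were lower, at 59.4% to 88.4% of wild type.

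Suz12 (ENSMUSG00000017548, chromosome 11, 79993106 to 80034123, plus strand) had 202, 183, 149 and 164 RPM in wild type and 105, 121, 124 and 115 RPM in knockout. Each knockout library was below each wild-type library. The mean went from 175 ± 23.3 to 116 ± 8.25 RPM (SD, n = 4), 66.7% of wild type, or -0.57 as log2 fold change (SE 0.11, adjusted p = 0.010). Its 6 complete, well-read junctions were lower, at 63.1% to 71.6%. Ezh2 and Suz12 each passed in 21 of 21 alternatives (adjusted p 3.59e-08 to 0.018 and 6.63e-04 to 0.035). From the complete junctions they had nearly the same fold change, -0.56 and -0.55.

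Eed (ENSMUSG00000030619, chromosome 7, 89954654 to 89980983, minus strand) had 110, 112, 107 and 130 RPM in wild type and 89.9, 90.1, 93.5 and 115 RPM in knockout. In both groups library 4 was the highest, and knockout library 4 lay inside the wild-type range. The log2 fold change was -0.24 (SE 0.11, adjusted p = 0.14), and 10 of its 11 junctions were lower. Eed passed without knockout library 4 (-0.33, adjusted p = 0.032), without both libraries numbered 4 (-0.27, adjusted p = 0.042) and from the complete junctions with the replicate block (adjusted p = 0.022).

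**Figure D3:**
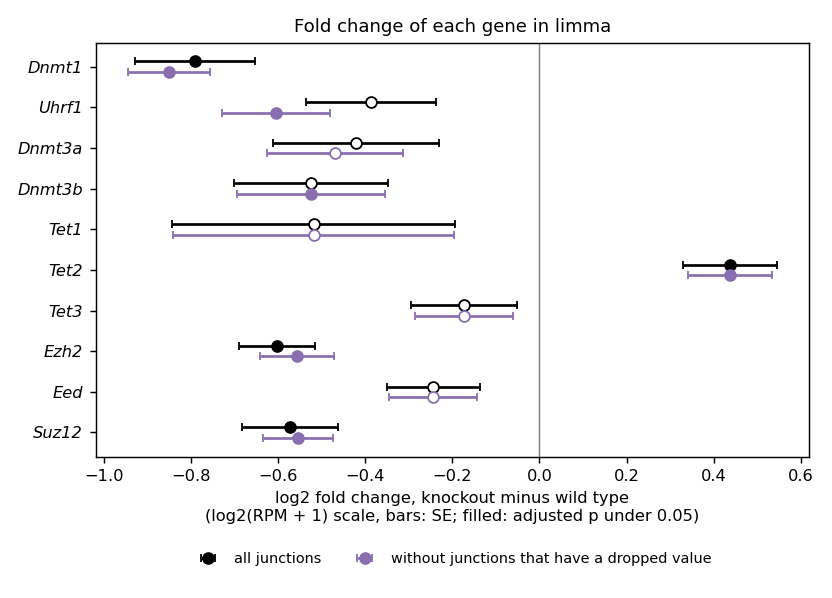
log2 fold change (knockout minus wild type, log2(RPM + 1) scale) of the 10 genes in limma, with SE as bars and 4 libraries per group, from all junctions (black) and from complete junctions (purple). Filled points have an adjusted p under 0.05. Uhrf1 and Dnmt3b are filled only in purple, and Tet2 is the one gene to the right of 0.

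Levels of different genes were compared per junction, as the median over a gene's complete junctions that held at least 10% of the reads of its most-read junction. In wild type Dnmt1 came first with 33.2 ± 3.81 RPM per junction (SD, n = 4). Suz12 (18.4 ± 1.18) and Uhrf1 (17.4 ± 1.92) followed, and these neighbours overlapped over the 4 libraries. Eed (9.66 ± 0.578), Ezh2 (8.16 ± 0.537) and Dnmt3a (5.38 ± 0.692) came next, then Tet3 (3.63 ± 0.627) and Tet2 (1.85 ± 0.138), all in RPM per junction. Dnmt3b (0.411 ± 0.131) and Tet1 (0.192 ± 0.0773) were last. No other pair of neighbours overlapped in wild type. In knockout the order of the means was the same, with Dnmt1 at 18.3 ± 1.58 and Tet2 (2.86 ± 0.299) close to Tet3 (3.22 ± 0.445).

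The proportion between the catalytic subunits of PRC2 changed. Ezh1, the second such subunit, had 34.1 to 46.8 RPM in wild type and 39.1 to 55.7 RPM in knockout and did not pass the test (0.23, SE 0.15, adjusted p = 0.31). For this ratio a gene's summed RPM was divided by the number of all its junctions, unlike the median over selected junctions used above. By that measure Ezh2 was 2.64, 3.61, 3.36 and 2.86 times Ezh1 in wild type and 1.71, 2.20, 1.30 and 1.80 times in knockout. The groups did not overlap. The log2 ratio was lower by -0.84 in knockout (exact two-sided permutation p = 0.0286, the smallest that 4 against 4 allow). It was -0.80 from the complete junctions, and -0.96 to -0.71 with 1 library left out.

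Several of these genes are known to be transcribed with the genes of DNA replication in dividing cells, so each was set beside the replicative helicase, the summed level of Mcm2 to Mcm7. That sum went from 2909 ± 148 to 1733 ± 129 RPM (SD, n = 4), 59.6% of wild type, a log2 difference of -0.75. A gene with unchanged RPM would therefore gain about as much in its ratio. Relative to the sum, Dnmt1 had a log2 difference of -0.04 (exact permutation p = 0.77), Ezh2 0.14 (p = 0.11) and Suz12 0.17 (p = 0.20), each with overlapping groups. From the complete junctions the groups of Suz12 did not overlap (0.19, exact permutation p = 0.0286, and 0.095 adjusted over the 10 ratios). Within pairs of equal replicate number the Ezh2 ratio was higher in knockout in 4 of 4, as were those of Eed, Uhrf1, Tet2 and Tet3, and an exact test over sign changes of the 4 paired differences gave 0.125 for each, the smallest p it allows. The ratio of Tet2 rose from 0.00710 to 0.00753 in wild type to 0.0155 to 0.0198 in knockout, a log2 difference of 1.20. The ratio of Tet3 went from 0.0114 to 0.0139 to 0.0167 to 0.0203 (0.57). For Tet2, Tet3 and Uhrf1 (0.36) the groups did not overlap, and the exact permutation p was 0.0286. Adjusted over the 10 ratios it was 0.095, so none passed. As 0.0286 is the smallest p that 4 against 4 allow, a few ratios could not pass this adjustment whatever their size. The ratios of Tet3 and Uhrf1 rose by less than the sum fell, and both genes had negative fold changes in RPM. How often other genes separate in this ratio was not measured. The ratio of Uhrf1 depended on dropped values, with 0.13 (exact permutation p = 0.20) from the complete junctions. Eed had 0.50 (p = 0.057), Dnmt3a 0.32 (p = 0.23), Dnmt3b 0.17 (p = 0.40) and Tet1 -0.15 (p = 0.83), by the same exact permutation test.

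**Figure D4:**
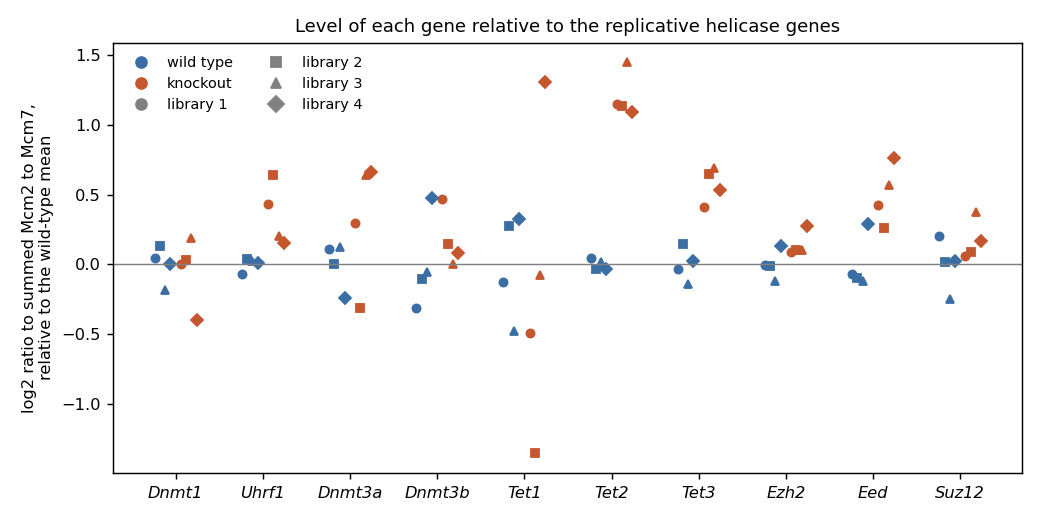
log2 ratio of each gene to the summed level of Mcm2 to Mcm7 in each library, relative to the wild-type mean (line at 0), 4 wild-type and 4 knockout libraries. The sum itself was lower in knockout (log2 difference -0.75), which raises the ratio of an unchanged gene. Knockout points of Dnmt1 lie on both sides of the line and those of Ezh2 and Suz12 a little above it, with groups that overlap, while knockout points of Tet2 and Tet3 lie above all wild-type points.

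The genes whose log2(RPM + 1) values followed a member most closely over the 8 libraries were listed by Pearson r, as a description. The first 3 for Ezh2 were Ints7 (0.996), Mcm2 (0.994) and Prim2 (0.994), of which Mcm2 is a helicase subunit and Prim2 a primase subunit. For Dnmt1 they were Arhgap10 (0.994), Adgra3 (0.993) and Fam84b (0.987). For Suz12 they were Ift74 (0.980), Zfp36l2 (0.972) and Cwf19l1 (0.971). For Tet2 they were Plau (0.998), the urokinase gene, Ctsb (0.992), the cathepsin B gene, and Fmo5 (0.990). The 8 values share 2 groups and the replicate numbers, and each set of 3 is the top of 11002 correlations.

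Of 10 tested partners of the DNA methyltransferases, 4 were lower and 1 was higher, with a median of -0.41. Over all genes tested, 12.1% were lower and 8.49% higher. Under TMM scaling, which assumes that most genes are unchanged, 3 were lower. From the complete junctions 6 were lower, beside 17.1% of all genes. Cdca7, which anchors the remodeler Hells at chromatin, went from 86.5 ± 19.5 to 37.2 ± 8.85 RPM (SD, n = 4, -1.20, adjusted p = 0.0071). Lig1, the replication ligase, went from 198 ± 18.0 to 121 ± 20.1 RPM (-0.71, adjusted p = 0.0091). Usp7, a deubiquitinase that binds Dnmt1 and Uhrf1, went from 383 ± 34.6 to 293 ± 20.6 RPM (-0.38, adjusted p = 0.021). The call of Usp7 ended without WT1, WT2, WT4 or KO3 (adjusted p 0.050 to 0.064). Dnmt3l, a catalytically inactive cofactor of the de novo enzymes, was the one that rose, from 0 to 0.317 RPM in wild type to 1.16 to 7.36 RPM in knockout (adjusted p = 0.0083). Of 10 methyl-CpG readers 0 passed in limma (median -0.08), with 1 lower and 1 higher at an unadjusted p under 0.05, 0 in edgeR and 1 higher in DESeq2. Their most abundant genes were Mbd1 (169 ± 8.35 and 153 ± 9.06 RPM) and Mbd2 (137 ± 23.9 and 136 ± 28.1 RPM).

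Genes that act with the TET enzymes or in base excision had 3 lower and 1 higher of 14 tested (median -0.31), and 6 lower and 1 higher from the complete junctions. Over all genes the shares were 12.1% lower and 8.49% higher, and 17.1% and 10.8% from the complete junctions. Parp1, a poly(ADP-ribose) polymerase, went from 502 ± 34.5 to 271 ± 51.5 RPM (SD, n = 4, -0.90, adjusted p = 0.0039). Cxxc5, a CpG-binding protein, went from 20.5 ± 4.24 to 8.29 ± 0.991 RPM (-1.19, adjusted p = 0.0041). Idh3a, a subunit of mitochondrial isocitrate dehydrogenase, fell by 0.66 on the log2 scale, and did not pass when WT3, WT4 or KO3 was left out (adjusted p 0.052 to 0.063). Idh1, which makes the TET cofactor 2-oxoglutarate in the cytosol, had 105 ± 31.2 and 189 ± 31.8 RPM (0.86, adjusted p = 0.024). Its call ended without any 1 of 6 libraries, namely WT1, WT2, WT4, KO1, KO2 and KO3 (adjusted p 0.055 to 0.068).

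Of 8 tested PRC2 partners, 3 were lower and 1 was higher (median -0.36), against 12.1% lower and 8.49% higher over all genes tested. The histone-binding subunits Rbbp4 and Rbbp7 went from 576 ± 30.1 to 428 ± 20.5 RPM (-0.43, adjusted p = 0.0059) and from 411 ± 18.1 to 272 ± 41.4 RPM (-0.61, adjusted p = 0.0081; SD, n = 4). Phf1, a Polycomb-like accessory subunit, rose from 26.8 ± 3.45 to 48.8 ± 5.33 RPM (0.84, adjusted p = 0.0045). Jarid2, another accessory subunit, went from 64.3 ± 6.49 to 48.3 ± 5.93 RPM (-0.41, adjusted p = 0.039). That call ended under TMM scaling (0.069) and without any 1 of 7 libraries, KO3 being the exception (0.055 to 0.10). PRC1, the complex that ubiquitinates histone H2A, had 2 of 20 tested subunits lower, near the 12.1% of all genes tested. They were L3mbtl2 (-0.54, adjusted p = 0.030) and Pcgf6 (-0.62, adjusted p = 0.0498). Neither passed under TMM scaling (0.060 and 0.065). From the complete junctions 5 subunits were lower, beside 17.1% of all genes. With the replicate block 4 were lower, beside 1727 of all genes. L3mbtl2 did not pass without WT3, WT4, KO1, KO2 or KO3 (0.053 to 0.075). Pcgf6 did not pass without WT1, WT2, WT4, KO1, KO2 or KO3 (0.081 to 0.126).

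Of 9 tested erasers of these marks, 1 was higher, against 8.49% of all genes tested. Kdm6b, an H3K27 demethylase, went from 82.3 ± 16.1 to 144 ± 16.2 RPM (SD, n = 4, 0.81, adjusted p = 0.0091). Of 12 tested H3K36 and H3K4 enzymes, 2 were lower, against 12.1% of all genes tested. Kdm1a, an H3K4 demethylase, had -0.43 (adjusted p = 0.018, and 0.053 without knockout library 3), and Setd1a, an H3K4 methyltransferase, had -0.43 (adjusted p = 0.024). From the complete junctions 1 eraser was also lower and 1 of the H3K36 and H3K4 enzymes higher. That fit called 17.1% of all genes lower and 10.8% higher. The call of Setd1a ended without WT1, WT4, KO1 or KO3 (0.056 to 0.065). In the list of replication and S phase genes 10 of 19 were lower (median -0.68), with Mcm7 at -0.88, Mcm4 at -0.81, Mcm2 at -0.80 and Pola1 at -0.70. Granulocyte maturation genes had 8 of 10 higher (median 4.88), and rose least in knockout library 4, where Ltf (lactoferrin) had 142 RPM of up to 4697 RPM in the group. The part of these groups in the levels of the 10 genes was not tested.

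**Figure D5:**
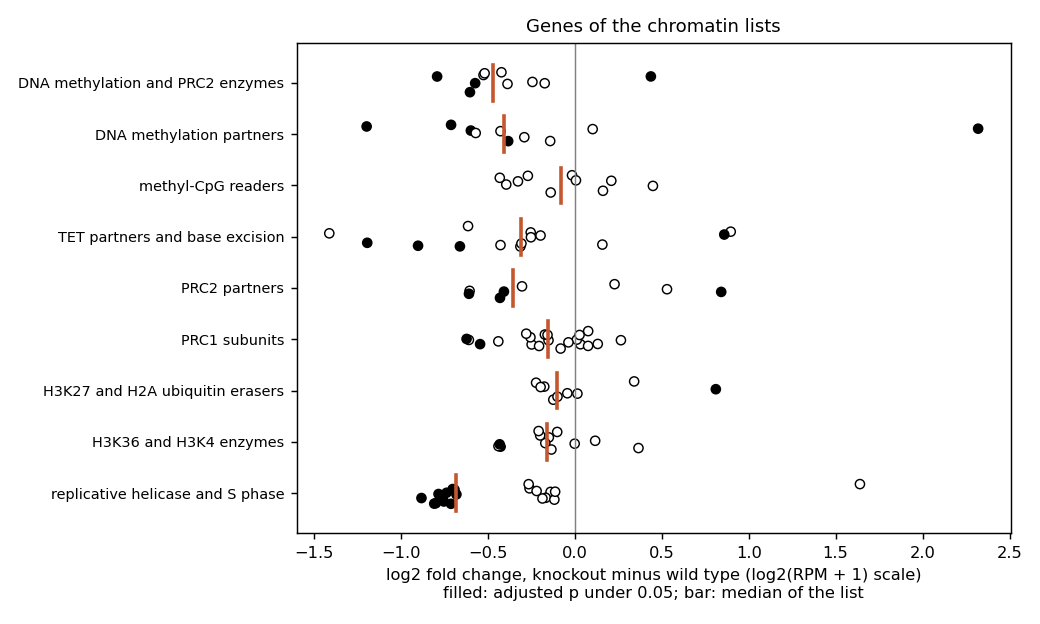
log2 fold change (knockout minus wild type, log2(RPM + 1) scale) of each tested gene, by list. Filled points have a limma adjusted p under 0.05 and bars are list medians. The median of the 10 genes (-0.47) lies between those of the DNA methylation partners (-0.41) and of the replication list (-0.68).

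Use of single junctions within the genes was tested with limma's diffSplice, which compares a junction's change with that of the rest of its gene. It covered 63 junctions of 6 of the genes (complete, averaging 100 scaled reads or more), and 0 were called, against 0.0284% of 35230 junctions of 4602 genes. At an unadjusted p under 0.05 there were 4, in Ezh2 (2), Eed and Uhrf1, which is 6.35% of the 63 against 1.59% of all junctions tested. The count called was also 0 with the replicate block, without both libraries numbered 4, and for 99 junctions of 8 of the genes at a minimum of 30 scaled reads. Alternative joins were read in both groups. Entry into block 17 of Dnmt3a from block 15 held 57 reads against 277 from block 12 in wild type, and 21 against 309 in knockout, with shares per library of 6.41% to 32.6% and 1.41% to 8.96% that overlapped. In Dnmt3b the join that skips blocks 22 and 23 held 86 reads against 22 into block 22 in wild type, and 50 against 18 in knockout. In Ezh2 the join that skips block 11 held 521 against 26 and 328 against 15. Entry into block 5 of Ezh2 from part 1 of block 4 held 283 reads against 753 from part 2 in wild type, and 149 against 471 in knockout, with 1 read from part 1 in each library numbered 4. The junction from part 1 is flagged for dropped values, so these counts do not give a share of use. These pairs were chosen after their values were seen and have no test.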

How the data were processed

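Per the submitters' processing notes, Trimmomatic 0.39, kallisto and build mm10 were used. The aligner was not given in the sources used here. Rows are AltAnalyze junctions, per the file headers. The authors' deposited signal was the junction's reads plus 1, scaled by the library's junction reads and a length of 60 nt. Whole reads came back for 100% of values above the floor (tolerance 0.001), summed per gene to RPM.

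The test was limma 3.58.1 (trend, robust) on log2(RPM + 1), with Benjamini-Hochberg adjustment over genes averaging 1 RPM or more. Ratios used exact two-sided permutation. Alternatives ran edgeR 4.0.16 and DESeq2 1.42.0 on the recovered reads. Of the tests, only limma's gene test and diffSplice were tried on simulated counts, which held no dropped values and no pairing by replicate number. Replicate numbers paired the libraries: deviations from group means correlated at 0.316, 0.293, 0.356 and 0.550 for equal numbers and at most at 0.146 otherwise; the fit reported has no block. Genes and coordinates come from Gencode M21 (mm10). The members and lists were chosen with earlier results of these data known. Named from each list were up to 4 called genes with the smallest adjusted p, or the 2 most abundant, plus Ezh1 for the ratio. The prediction behind a dropped value uses the junction's highest ratio to the rest of its gene, a definition taken after the reads of these genes were seen in place of the second-highest ratio (9004 junctions).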

Additional observations from a re-analysis of the deposited data

Results flagged for a closer look

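Of 44 groups of 4 libraries examined, in levels of the 10 genes, the helicase sum and the ratios, 4 held a library far from its 3 neighbours, where chance gives about 1 in 20. Eed had 115 RPM in knockout library 4 and 89.9 to 93.5 RPM in the other knockout libraries. Relative to the summed Mcm2 to Mcm7 level, Eed was at 0.0481 in wild-type library 4 and at 0.0362 to 0.0375 in the other wild-type libraries. Ezh2 relative to that sum was at 0.0625 in knockout library 4 and at 0.0548 to 0.0554 in the others. Tet2 relative to it was at 0.0198 in knockout library 3 and at 0.0155 to 0.0161 in the others. Of these 4, 3 lie in a library numbered 4. Their source was not tested.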

How the results depend on the processing

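The calls of Dnmt1, Ezh2 and Suz12 held in all 21 alternatives run. Genes lower numbered 1330 (2508 with the replicate block and complete junctions, 706 to 1742 with 1 library left out) and genes higher 934 (1769, 1633 with DESeq2, and 509 to 1249). TMM scaling gave 972 lower and 1092 higher, moving the higher share of calls from 41.3% to 52.9%. Of the 10 genes, 3 were lower in the reported fit, 5 from complete junctions and 7 with the block added. There were 5 from the most-read junction, 5 without both libraries numbered 4, and 3 to 5 with 1 library left out. Of all genes, the first 5 of these fits called 1330, 1868, 2508, 1078 and 1538 lower, in that order. The 1 of the 10 genes called higher became 0 from the most-read junction, and 0 to 1 with 1 library left out. The replicate block alone gave 1727 lower and 1357 higher genes and changed no member's call (Eed adjusted p = 0.055, Uhrf1 0.057). Dropped values by the second-highest ratio, added after seeing the data, gave 1711 lower and 1115 higher, with 4 of the 10 genes lower, Uhrf1 passing (-0.56, adjusted p = 0.0051) and Dnmt3b not (adjusted p = 0.055). Paired by replicate number, also added later, the Ezh2 to Ezh1 ratio (-0.84) had an exact p of 0.125, the smallest that 4 pairs allow. Mbd2 (-0.02) turned positive under TMM (0.0595), edgeR (0.0615), DESeq2 (0.0734), the second-highest ratio (0.0400), from complete junctions with and without the block (0.190) and from its most-read junction (0.199), and ran from -0.143 to 0.0941 with 1 library left out. Ezh1 had -0.0272 from its most-read junction. The cause was not tested. Depth limits Tet1 and Dnmt3b most.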
